A study of Mus musculus with 6 samples.

Results

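The genes described here are the Ppargc1a coactivator family and the transcription factors that work with it, 10 genes with 193 probe sets of the 22103 genes and 318760 probe sets that carried a single gene symbol. Members were taken by symbol from the platform annotation, and all 10 matched under their current symbol. The set was chosen by the difference of Ppargc1a between these same arrays, which was the 10th largest decrease of 16871 genes tested. Its neighbours in that order were Aldh1a1 (log2 difference -2.45) just above and Trim30d (-2.44) just below. Values of the members in this comparison are therefore given as a description, with no p-value.

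The RNA came from OP9 cells, a mouse stromal line that is used to support blood cell precursors in culture and that can turn into adipocytes. One stable line carried a pLKO.1-puro lentiviral vector with a scrambled shRNA (control shRNA) and the other the same type of vector with an shRNA against Smoothened (Smo shRNA), so that both were transduced lines. Smoothened (Smo) is the membrane protein through which all Hedgehog ligands signal. Cells were kept below confluence, and 3 RNA samples per line were hybridised to Mouse Exon 1.0 ST arrays. The labels name no separate transductions, so the spread between arrays may be technical, and any difference between the lines that arose apart from the hairpin enters the same comparison.

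Gene values of arrays of the same line correlated at 0.996 to 0.998 and of different lines at 0.979 to 0.981, and the median SD within a line was 0.07 on the log2 scale. The median difference over all genes was 0.01. Of genes with a limma adjusted p under 0.05, 68 were at least 2-fold higher and 196 at least 2-fold lower in Smo shRNA cells. The number of arrays, 3 per group, limits the precision of every value. Array values of different genes depend on their probes, so no gene's level is set against another's.

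Ppargc1a encodes PGC-1alpha, a coactivator that binds no DNA itself and docks on nuclear receptors and other factors to raise transcription. With its relatives PGC-1beta (Ppargc1b) and PRC (Pprc1) it is known for driving the making of mitochondria, fatty acid oxidation and, in brown fat, heat production. The estrogen-related receptors (Esrra, Esrrb, Esrrg) and PPARalpha (Ppara) are receptors on which these coactivators act, and Nrf1 and Gabpa are DNA-binding factors that switch on nuclear genes for mitochondria. Tfam is a product of that programme that packs and transcribes mitochondrial DNA.

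The promoters of Ppargc1a and Tfam are shown because they belong to the members at the start and at the end of this chain, the coactivator Ppargc1a and the mitochondrial factor Tfam. Each run holds the 250 bases before 1 start of the gene in RefSeq, build GRCm38.p6, on the minus strand. Capitals mark the only matches found there to 5 searched motifs.

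Ppargc1a, chr5:51567726-51567975: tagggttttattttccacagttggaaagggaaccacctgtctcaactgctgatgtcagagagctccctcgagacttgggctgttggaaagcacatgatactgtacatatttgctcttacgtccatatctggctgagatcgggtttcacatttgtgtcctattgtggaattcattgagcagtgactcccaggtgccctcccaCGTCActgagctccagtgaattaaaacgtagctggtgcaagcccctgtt

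Tfam, chr10:71238045-71238294: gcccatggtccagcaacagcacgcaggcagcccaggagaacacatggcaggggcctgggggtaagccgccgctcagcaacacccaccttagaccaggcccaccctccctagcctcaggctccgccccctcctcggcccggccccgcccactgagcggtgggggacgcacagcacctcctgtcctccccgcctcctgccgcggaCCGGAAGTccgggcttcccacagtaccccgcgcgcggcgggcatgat

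The motifs, searched on both strands, were the cyclic AMP response element TGACGTCA, its shorter form TGACG, which lies within it, the estrogen-related receptor element TNAAGGTCA, an NRF1 element GCATGCGC and the GABP element CCGGAAGT. The Ppargc1a stretch shown held 1 such short site, 49 to 45 bases before that start, a motif found in 17.8% of 32851 promoters of this length. The short site was also present in 1 Ppara promoter and, at 2 places, in 1 Esrrb promoter. The Tfam promoter held 1 GABP element, 47 to 40 bases before the start, a motif found in 2.88% of them. The NRF1 element, found in 2.26%, was present in the Esrra promoter and, as 2 overlapping matches, in the Ppara promoter. The full cyclic AMP element (1.55%) and the estrogen-related receptor element (1.14%) matched none of the 14 member promoters of 9 genes searched. For Ppargc1a only the stretch shown was searched, so any other start or more distant sequence of the gene was not read. A match is a description of the letters and no evidence of binding.

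Ppargc1a stood at 10.37, 10.29 and 10.39 on the log2 scale in the 3 control arrays and at 7.84, 7.80 and 8.09 in the 3 Smo shRNA arrays. The groups were far apart, and every Smo shRNA array lay below every control array. The means were 10.35 ± 0.05 (SD, n = 3) and 7.91 ± 0.16 (SD, n = 3), a log2 difference of -2.44 (moderated SE 0.08), which is a 5.43-fold lower value in Smo shRNA cells. Smo itself, the target of the hairpin, went from 12.25 ± 0.03 to 11.38 ± 0.06 (SD, n = 3 each), a log2 difference of -0.88. The Ppargc1a value lay between -2.56 and -2.39 in all 14 alternative settings.

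The probe sets of Ppargc1a all differed in the same direction. Each of the 17 Ppargc1a probe sets had lower values on the Smo shRNA arrays, with no overlap between the groups. In the 16 that passed the filter on dim probe sets (average of 6.56 or more over the 6 arrays, 6.56 being the median probe set), differences ran from -3.13 to -1.60 with a median of -2.47. The 8 brighter probe sets had a median difference of -2.49 and the 8 dimmer ones -2.44. The brightest read 12.24, 12.25 and 12.21 in control arrays and 9.64, 9.67 and 9.88 in Smo shRNA arrays. The probe set with the smallest difference among the 16 read 10.45, 10.49 and 10.33 against 8.84, 8.62 and 9.01, and the 17th, below the filter, differed by -1.10.

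**Figure D1:**
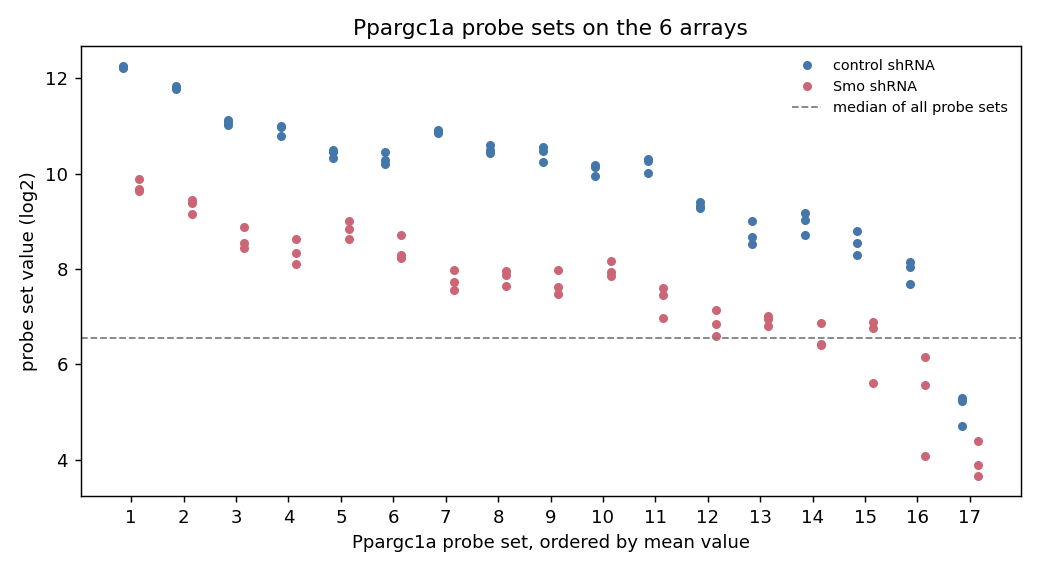
Log2 values of the 17 Ppargc1a probe sets (horizontal axis, ordered by their mean) on 3 control shRNA arrays (blue) and 3 Smo shRNA arrays (red), 1 point per array; the dashed line is the median of all probe sets, 6.56. In each probe set the red points lie below the blue ones, by -3.13 to -1.60 in the 16 brighter probe sets and by -1.10 in the dimmest.

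The other coactivators did not follow Ppargc1a. Ppargc1b, the closest relative in function, stood at 7.98, 8.01 and 7.95 in control arrays and 8.06, 7.99 and 7.94 in Smo shRNA arrays. The groups overlapped, with a log2 difference of 0.02 (SE 0.07, 95% interval -0.13 to 0.17), so the interval holds no change of the size seen for Ppargc1a. Of its 26 probe sets, 20 passed the filter, 12 of them higher and 8 lower, and 1 passed the test on its own (higher, by 0.48). Its brightest probe set read 14.05 on average in control and 14.08 in Smo shRNA cells.

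Pprc1, the coactivator of the family that is known to respond to growth signals, was higher. It stood at 10.09, 10.02 and 10.11 in control arrays and 10.44, 10.50 and 10.64 in Smo shRNA arrays, with no overlap. The log2 difference was 0.45 (SE 0.06), or 1.37-fold, and of 30 probe sets above the filter 28 were higher, 25 of them past the threshold on their own. The largest probe set decrease, -0.56, was among the dimmest of the 30 and did not pass.

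Read by the fit over all genes (limma, adjusted p under 0.05), 5 of the 10 members were called, 3 higher (Pprc1, Tfam and Nrf1) and 2 lower (Ppargc1a and Gabpa). The same 5 members had groups that did not overlap. In all 16871 genes the share called was 38.7%, with 21.3% higher and 17.4% lower, and the share without overlap was 47.6%. Since the comparison was in view when the members were chosen, nothing is read from these counts. Of the members' 156 probe sets above the filter, 40 were called higher and 18 lower, 16 of the 18 being those of Ppargc1a. Over all 245574 probe sets above the filter 30% were called, 17.5% higher and 12.4% lower, and 41% had no overlap between the groups.

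**Figure D2:**
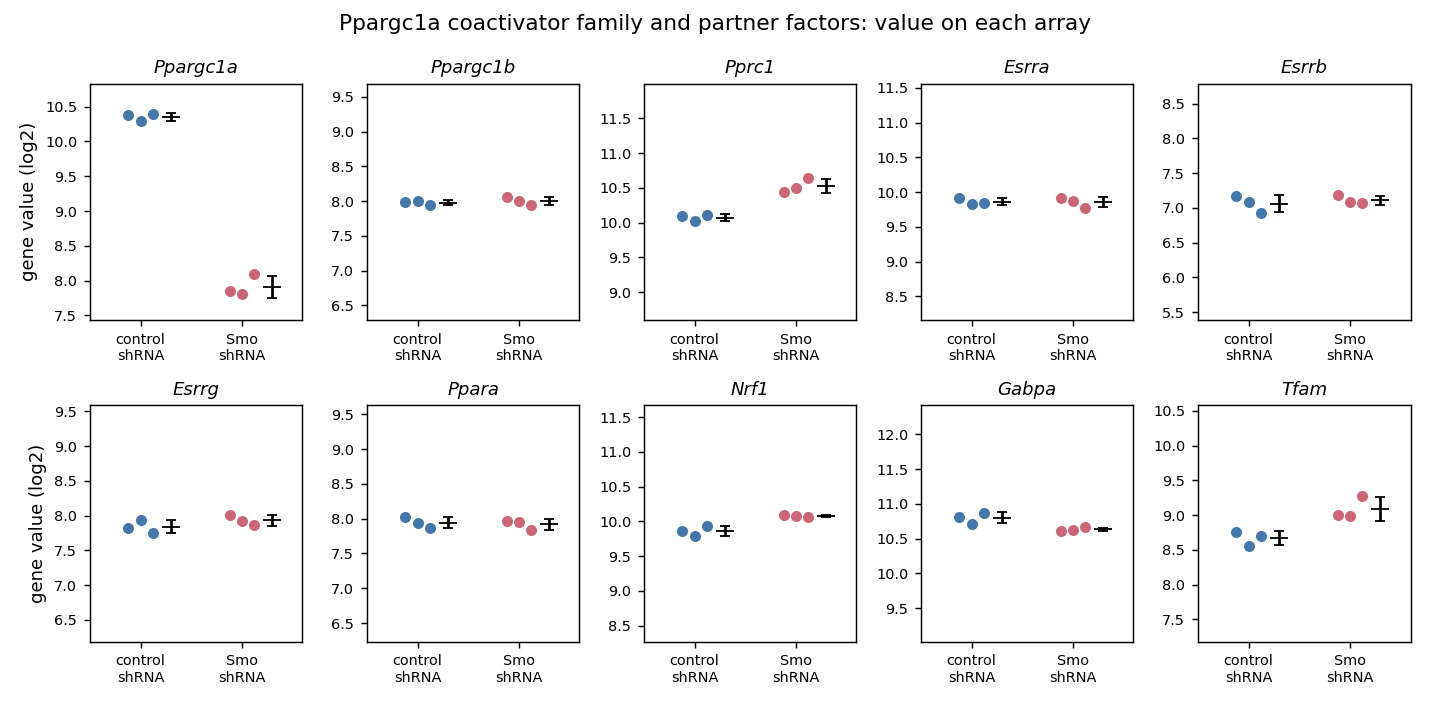
Gene values (log2, vertical axes spanning the same range in every panel) of the 10 members on 3 control shRNA arrays (blue) and 3 Smo shRNA arrays (red); the black bars are mean and SD, n = 3. Ppargc1a falls from 10.35 to 7.91, Pprc1, Tfam and Nrf1 shift up by 0.45, 0.42 and 0.21, and the other panels shift by 0.16 or less.

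The receptors among the members showed no difference beyond the spread between arrays. Esrra, the estrogen-related receptor of oxidative tissues whose own gene is a known target of PGC-1alpha, stood at 9.92, 9.83 and 9.85 in control arrays and 9.92, 9.87 and 9.77 in Smo shRNA arrays. The difference was -0.01 (SE 0.06, 95% interval -0.13 to 0.12), and its 12 probe sets ran from -0.14 to 0.25, 7 of them lower and 5 higher. These arrays overlapped almost entirely.

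Esrrb, known for its part in pluripotent stem cells, stood at 7.17, 7.09 and 6.93 in control arrays and 7.18, 7.08 and 7.07 in Smo shRNA arrays (difference 0.05, 95% interval -0.14 to 0.24). Esrrb lies on chromosome 12, where the median difference of 574 genes was 0.16 against 0.01 for all genes. Esrrg, the receptor of heart and muscle, stood at 7.83, 7.94 and 7.75 against 8.01, 7.92 and 7.86 (difference 0.09, 95% interval -0.08 to 0.26), and leaving out 1 array gave -0.02 to 0.04. Only 11 of 16 Esrrb probe sets and 12 of 23 Esrrg probe sets passed the filter, and with all probe sets the Esrrg value was 6.56 in control and 6.60 in Smo shRNA cells, at the median of all probe sets. For both genes the arrays of the groups overlapped.

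Ppara, the receptor that turns on fatty acid oxidation in liver, stood at 8.02, 7.93 and 7.87 in control arrays and 7.96, 7.96 and 7.83 in Smo shRNA arrays. The difference was -0.02 (SE 0.08, 95% interval -0.19 to 0.14), and 11 of its 17 probe sets passed the filter, 6 lower and 5 higher. The groups overlapped here too.

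The DNA-binding respiratory factors moved little and in opposite directions. Nrf1, which binds promoters of respiratory chain genes and of Tfam, stood at 9.87, 9.79 and 9.93 in control arrays and 10.09, 10.07 and 10.06 in Smo shRNA arrays. The groups did not overlap, with a difference of 0.21 (SE 0.05), or 1.16-fold. Of 13 probe sets above the filter 11 were higher, and the 7 brighter ones had a median difference of 0.27 against 0.04 for the 6 dimmer ones.

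Gabpa, the DNA-binding subunit of the GABP factor whose element is marked in the Tfam promoter above, stood at 10.81, 10.71 and 10.87 in control arrays and 10.62, 10.62 and 10.66 in Smo shRNA arrays. The highest Smo shRNA array was close under the lowest control array. The difference was -0.16 (SE 0.05), and all 18 of its probe sets were lower. Of the 16 above the filter 2 passed on their own, 12.5% against 12.4% of all probe sets called lower. The call of the gene was lost without control replicate 1 (-0.14), control replicate 3 (-0.11), Smo shRNA replicate 1 (-0.14) and Smo shRNA replicate 2 (-0.15). That left Ppargc1a as the 1 member called lower in those 4 fits. The difference of Gabpa from 0 was therefore near the limit of what 3 arrays per group resolve.

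Tfam, the packing and transcription factor of mitochondrial DNA, stood at 8.75, 8.56 and 8.69 in control arrays and 8.99, 8.99 and 9.28 in Smo shRNA arrays. The groups did not overlap, with means of 8.67 ± 0.10 and 9.09 ± 0.17 (SD, n = 3 each) and a difference of 0.42 (SE 0.08), or 1.34-fold higher. Of its 15 probe sets, all above the filter, 14 were higher and 7 passed on their own. Without 1 array the difference was between 0.29 and 0.40.

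**Figure D3:**
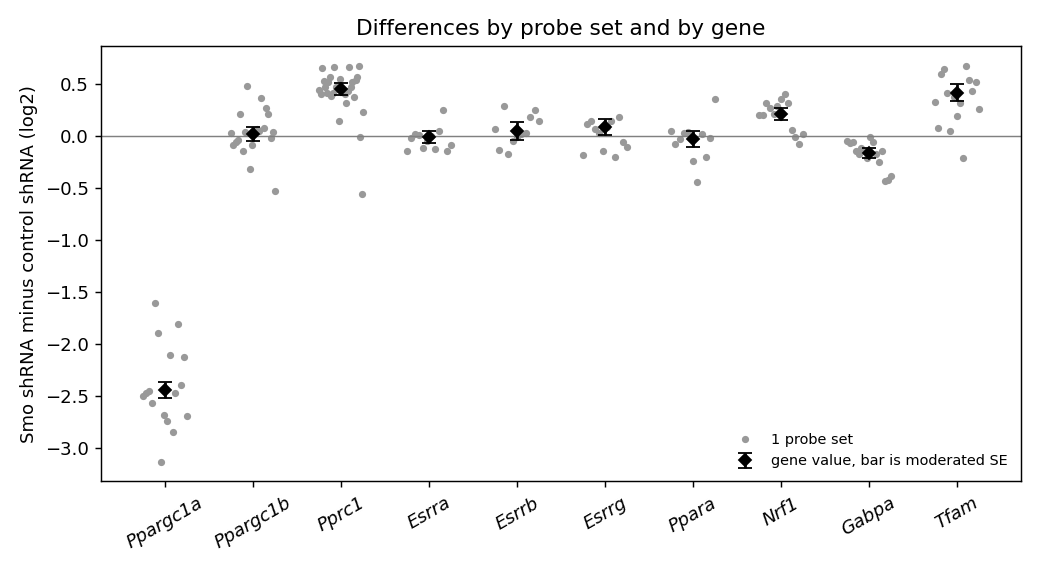
Log2 differences, Smo shRNA minus control shRNA, of each member's probe sets above the filter (grey points) and of its gene value (black diamonds with the moderated SE). The Ppargc1a probe sets lie between -3.13 and -1.60, those of Pprc1 and Tfam mostly above 0, and those of Ppargc1b, Esrra, Esrrb, Esrrg and Ppara on both sides of 0.

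Genes with the most similar profile to Ppargc1a were sought over the 6 arrays, by the root mean square distance between values centred on each gene's mean. Only protein-coding genes were taken, and those with gene-model or clone-like names were passed over. The nearest 5 were Itga1, a collagen-binding integrin chain (distance 0.05), Trim30d (0.07), the actin scaffold Sorbs2 (0.09), the neurotrophin receptor Ntrk3 (0.10) and Limch1, an actomyosin regulator (0.11). Their log2 differences lay between -2.45 and -2.26. None of them is a member of the lists described below. The distance mostly follows the size of the step between the lines, and 6 arrays give no more detail.

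Partner receptors and coregulators of the family changed in both directions. Of 31 tested, 13 rose and 8 fell, 67.7% against 38.7% of all genes, with a median difference of 0.04 (0.01 for all genes). The share of all genes called was 31.7% with no filter on dim probe sets. It was 49% when only probe sets above the 75th percentile were kept, so it rose as dim probe sets were left out. The part of signal level in the shares of this and the later lists was not tested. The nuclear receptor coactivator Ncoa1 was 1.81-fold higher (9.08 ± 0.07 to 9.94 ± 0.02, SD, n = 3, limma adjusted p = 3.2e-08). Ncoa1 lies on chromosome 12, like Esrrb, where 52.3% of 574 genes were called and the median difference was 0.16, and the part of that shift in its value was not tested. The acetyltransferase gene Kat2a, whose product acetylates and restrains PGC-1alpha, rose by 0.56 (adjusted p = 1.56e-07), and Mybbp1a, a repressor that binds PGC-1alpha, rose by 0.47 (adjusted p = 3.9e-07). The thyroid hormone receptor Thrb fell by 0.68 (adjusted p = 5.13e-06). In fits lacking 1 array 6 to 9 rose and 7 to 8 fell. The number higher was 6 in the fit lacking control replicate 1 and 7 in the fit lacking Smo shRNA replicate 3. It was 8 in the fits lacking control replicate 2 or either of Smo shRNA replicates 1 and 2. The share of all genes called was also smaller in fits lacking 1 array, 28.6% to 32.9% against 38.7%. Such counts of this and the later lists stand beside that share.

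The partners named after their values were seen were Pparg, the master regulator of adipocytes, and its dimer partner Rxra. Pparg differed by 0.13 (12.54 ± 0.01 to 12.66 ± 0.05, SD, n = 3, limma adjusted p = 0.0043), a call lost without control replicate 1, 2 or 3, without Smo shRNA replicate 3 and with no variance trend. Rxra fell by 0.30 (adjusted p = 8.94e-06). The mediator subunit Med1, on which PGC-1alpha docks, differed by 0.02 (adjusted p = 0.73) and Foxo3 by -0.01 (adjusted p = 0.92).

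Of 23 tested genes that act upstream of Ppargc1a, 9 rose and 4 fell (56.5% called against 38.7% of all genes, median difference 0.11). The calcium-dependent kinase Camk4, which activates CREB and the Ppargc1a promoter in muscle, stood at 8.39, 8.20 and 8.38 in control arrays and 7.41, 7.39 and 7.23 in Smo shRNA arrays. Its log2 difference was -0.98 (SE 0.08, limma adjusted p = 2.61e-07), the largest in the list, but -0.29 when only probe sets above the 75th percentile were kept. The AMP-activated kinase subunit Prkaa2 rose by 0.37 (adjusted p = 0.000687), the CREB relative Crem by 0.35 (adjusted p = 0.00335) and the CREB coactivator Crtc3 by 0.33 (adjusted p = 0.000443).

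The Crem call was lost without control replicate 1 (0.32). The p38 kinase Mapk14 (0.04, adjusted p = 0.402) and the calcineurin subunit Ppp3cb (-0.01, adjusted p = 0.824) did not pass. The number that fell was 2 without control replicate 1, 2 or 3 or Smo shRNA replicate 3, and 1 without Smo shRNA replicate 1 or 2. In fits lacking 1 array 6 to 8 genes of the list rose.

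Genes that copy and transcribe mitochondrial DNA were, like Tfam, mostly higher. Of 19 tested, 11 rose, 1 fell and 7 did not pass, 63.2% called against 38.7% of all genes, with a median difference of 0.18 against 0.01. The nuclease and helicase gene Dna2, which also serves nuclear DNA replication, was 1.80-fold higher (8.53 ± 0.11 to 9.38 ± 0.03, SD, n = 3, limma adjusted p = 1.69e-07). The mitochondrial topoisomerase Top1mt rose by 0.71 (adjusted p = 2.15e-06), the transcription factor and ribosomal RNA methylase Tfb1m by 0.38 (adjusted p = 2.71e-05) and the polymerase subunit Polg2 by 0.37 (adjusted p = 0.0017). Tfb2m, which starts transcription of mitochondrial DNA together with Tfam and was named after its value was seen, rose by 0.33 (adjusted p = 0.000103).

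Dguok, a mitochondrial nucleoside kinase, differed by 0.06 (adjusted p = 0.378) and the elongation factor Tefm by 0.07 (adjusted p = 0.516). Without 1 array 6 to 9 genes of the list rose, 6 without Smo shRNA replicate 1 and 7 without Smo shRNA replicate 2 or 3, and the 1 that fell, Mterf4 (-0.30, limma adjusted p = 0.00377, named after its value was seen), was lost without any array other than control replicate 2. The Polg2 call was lost without Smo shRNA replicate 1 (0.32).

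Enzymes of the citric acid cycle and of pyruvate dehydrogenase were also mostly higher. Of 15 tested, 10 rose, 2 fell and 3 did not pass (80% called against 38.7% of all genes, median difference 0.16), and leaving out 1 array gave 7 to 9 higher. Dld, a subunit shared by the pyruvate and oxoglutarate dehydrogenases, was 1.56-fold higher (10.48 ± 0.09 to 11.12 ± 0.03, SD, n = 3, limma adjusted p = 1.78e-07). Dld and Dlst lie on chromosome 12, with its median difference of 0.16. Suclg2 rose by 0.44 (adjusted p = 9.01e-07), and the oxoglutarate dehydrogenase subunits Dlst and Ogdh by 0.39 (adjusted p = 7e-07) and 0.29 (adjusted p = 4.8e-07). Idh3g (0.03, adjusted p = 0.287) and Pdhb (0.02, adjusted p = 0.794) did not pass. The 2 that fell, Pdha1 and Idh3b, differed by -0.14 (adjusted p = 0.00936) and -0.12 (adjusted p = 0.0102), both chosen for mention afterwards. Neither was called without control replicate 1 or 3 or Smo shRNA replicate 3, and 1 was without Smo shRNA replicate 1.

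Fatty acid oxidation, the pathway that PGC-1alpha and PPARalpha raise in muscle and liver, changed both ways. Of 23 tested genes 6 rose and 6 fell, 52.2% against 38.7% of all genes, with a median difference of -0.02. Acot2, a mitochondrial thioesterase, was 1.79-fold higher (9.50 ± 0.10 to 10.33 ± 0.10, SD, n = 3, limma adjusted p = 1.47e-07) and lies on chromosome 12, with its median difference of 0.16. The dehydrogenase Acadl rose by 0.35 (adjusted p = 5.05e-05). Pdk4, the kinase that shuts pyruvate dehydrogenase and a known target of the estrogen-related receptors, read 12.87, 12.75 and 12.80 in control arrays and 12.31, 12.28 and 12.34 in Smo shRNA arrays. It was 1.41-fold lower (adjusted p = 2.17e-08), and the groups were well apart.

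The carnitine carrier Slc25a20 fell by 0.27 (adjusted p = 0.011), a call lost without control replicate 1 (-0.22), control replicate 3 (-0.23), Smo shRNA replicate 1 (-0.25) and Smo shRNA replicate 2 (-0.22). Cpt1a, the gate of fatty acids into mitochondria, differed by -0.07 (adjusted p = 0.0865) and Hadha by -0.02 (adjusted p = 0.656). With quantile normalization Cpt1a passed (-0.08). Without 1 array the fatty acid genes that rose numbered 4 to 7. Those that fell numbered 3 without control replicate 2 or Smo shRNA replicate 3, 2 in the fit lacking Smo shRNA replicate 2, and 1 in the fits lacking control replicate 1, control replicate 3 or Smo shRNA replicate 1, so most of the 6 decreases were near the threshold.

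Of 18 representative respiratory chain and ATP synthase subunits, 7 rose and 3 fell (55.6% called against 38.7% of all genes, median difference 0.05). The ATP synthase subunit Atp5c1 fell by 0.68 (limma adjusted p = 1.3e-07) and the cytochrome oxidase subunit Cox6c by 0.36 (adjusted p = 0.000376), the latter by 0.09 and below the threshold with the stricter filter, while Ndufa9 of complex I and Sdha of complex II rose by 0.33 (adjusted p = 0.000294) and 0.26 (adjusted p = 3.48e-05). Atp5b (0.04, adjusted p = 0.0817) and Uqcrb (0.04, adjusted p = 0.417) did not pass. Atp5b did pass without Smo shRNA replicate 1 or 3 and with quantile normalization. Without control replicate 1, 2 or 3 the number that rose was 4.

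Among 16 genes of mitochondrial fusion, fission and antioxidant defence, 6 rose and 2 fell (50% called against 38.7% of all genes, median difference 0.04). The desuccinylase Sirt5 fell by 0.49 (limma adjusted p = 4.79e-05). Sod2, the superoxide dismutase of mitochondria and a known PGC-1alpha target, rose by 0.28 (adjusted p = 0.000977), a call lost without Smo shRNA replicate 2 (0.20). Its value was 0.16 without control replicate 1 and 0.41 when probe sets were averaged. The deacetylase Sirt3 and the fusion protein Mfn1 differed by 0.27 (adjusted p = 0.0384) and 0.25 (adjusted p = 0.0163), with 0.13 and 0.15 without control replicate 2, where both calls were lost. Any of the 3 Smo shRNA arrays left out also ended both calls, as did control replicate 3 for Sirt3 and control replicate 1 for Mfn1. The Sirt3 call was also lost with no filter and with no variance trend. Sod1 (-0.03, adjusted p = 0.568) and catalase (Cat, -0.06, adjusted p = 0.0807) did not pass, though Cat passed without Smo shRNA replicate 3. The number that rose was 1 without Smo shRNA replicate 2, 2 without control replicate 2 or Smo shRNA replicate 3, and 3 without control replicate 1 or Smo shRNA replicate 1, and the number that fell was 1 without control replicate 1 or 3 or Smo shRNA replicate 1 or 2.

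Genes of thermogenic fat, the tissue in which PGC-1alpha raises heat production, changed in few cases. Of 19 tested 1 rose and 2 fell, 15.8% against 38.7% of all genes, with a median difference of -0.01. Tmem26, a surface marker of beige adipocytes, was 1.72-fold lower (12.86 ± 0.02 to 12.08 ± 0.04, SD, n = 3, limma adjusted p = 1.1e-10), Zfp516 fell by 0.33 (adjusted p = 0.000174) and the glycerol kinase Gk rose by 0.46 (adjusted p = 8.91e-05). Ucp1, the uncoupling protein of brown fat, named here after its value was seen, stood at 7.64, 7.36 and 7.50 in control arrays and 7.72, 7.58 and 7.49 in Smo shRNA arrays (0.10, adjusted p = 0.465). Those arrays overlapped. Kcnk3 (-0.04, adjusted p = 0.705) and Tbx1 (-0.00, adjusted p = 0.994) did not pass. Some genes that did not pass were dim, with the filter on probe sets at 6.56. Control means were 6.98 for Slc27a2, 7.52 for Bmp8b and 7.58 for Dio2, all named after their values were seen. Whether low signal hid differences in this list was not tested.

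**Figure D4:**
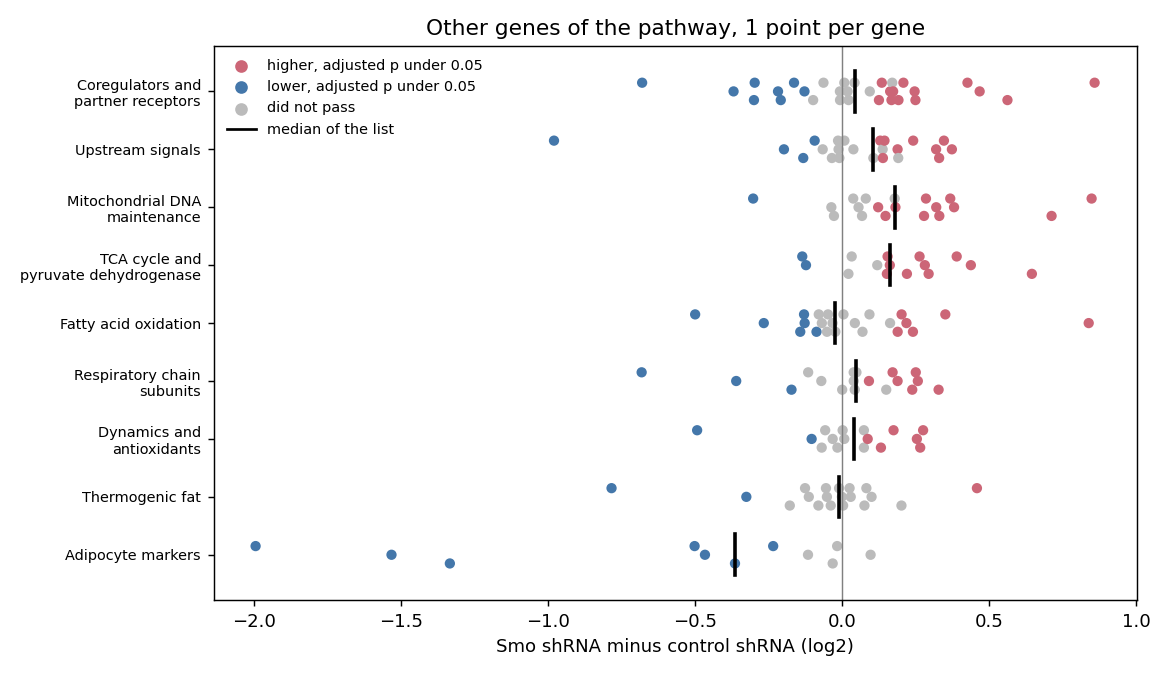
Log2 differences, Smo shRNA minus control shRNA, of the other genes of the pathway by list, 1 point per gene, red for higher and blue for lower at an adjusted p under 0.05, grey for genes that did not pass, with the list's median as a black line. Medians are 0.18 for mitochondrial DNA maintenance, 0.16 for the citric acid cycle and pyruvate dehydrogenase, -0.01 for thermogenic fat and -0.36 for adipocyte markers.

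Markers of adipocytes moved together with Ppargc1a. Of 11 tested 7 fell and 4 did not pass, 63.6% called against 38.7% of all genes (17.4% lower), with a median difference of -0.36, and the mean of the list was 9.74 to 9.83 in control arrays and 9.19 to 9.23 in Smo shRNA arrays. Adipoq, which encodes adiponectin, stood at 9.98, 9.43 and 9.81 in control arrays and 7.68, 7.72 and 7.84 in Smo shRNA arrays (3.99-fold lower, limma adjusted p = 2.8e-09). The fatty acid transporter Cd36, the lipase Lpl and the transcription factor Cebpa fell too, with log2 differences of -1.53 (adjusted p = 5.75e-11), -1.33 (adjusted p = 5.39e-11) and -0.50 (adjusted p = 3.08e-06). Cfd (-0.12, adjusted p = 0.219) and Pnpla2 (-0.02, adjusted p = 0.839) did not pass. The part of these markers in the Ppargc1a difference was not tested, and in RNA from a whole culture fewer cells of a type and less RNA per cell cannot be told apart.

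Skeletal muscle, another tissue known for Ppargc1a, was checked by 12 markers. Of these 1 rose, 2 fell and 9 did not pass, 25% called against 38.7% of all genes. The list mean was 8.25 to 8.33 in control arrays and 8.25 to 8.38 in Smo shRNA arrays. Desmin (Des) rose by 0.44 (limma adjusted p = 0.000362), and the 2 that fell, Tnnt3 (-0.22, adjusted p = 0.0177) and Acta1 (-0.17, adjusted p = 0.0493), were lost without control replicate 2 or 3 or Smo shRNA replicate 2 or 3, and Acta1 also without control replicate 1, with no filter, with centred arrays and with quantile normalization. Acta1 differed by -0.09 without Smo shRNA replicate 3, and Tnnt3 by -0.34 with no filter and -0.40 when probe sets were averaged. Myod1, the master regulator of muscle, differed by -0.00 (adjusted p = 0.987) and Pax7 by -0.04 (adjusted p = 0.768).

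Of 10 macrophage markers Cd68, a lysosomal protein not limited to macrophages, was the 1 that rose (0.47, limma adjusted p = 0.000132). None fell, so 10% were called against 38.7% of all genes. The list mean was 7.899 to 7.999 in control and 7.955 to 8.054 in Smo shRNA arrays. Cd14 (-0.11, adjusted p = 0.18) and Ptprc, the CD45 gene of blood cells (0.06, adjusted p = 0.66), did not pass. Of 12 stromal markers 7 fell, 58.3% called against 38.7% of all genes (17.4% lower), led by Cxcl12 (-0.72, limma adjusted p = 4.54e-09) and Col1a2 (-0.46, adjusted p = 1.35e-07), with Pdgfra (-0.34, adjusted p = 8.43e-05) and Nt5e (-0.26, adjusted p = 0.0168) after them. The Nt5e call was lost without control replicate 1 or 2 or Smo shRNA replicate 2, and its difference was -0.13 without control replicate 2. Ly6a (0.01, adjusted p = 0.78) and Vcam1 (-0.08, adjusted p = 0.353) did not pass. Stromal list means were 10.88 to 10.89 in control and 10.67 to 10.72 in Smo shRNA arrays.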

How the data were processed

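The authors deposited one table of log2 values per array for 1256831 probe sets of Mouse Exon 1.0 ST arrays. Their normalization is not stated in any source at hand. The array medians were 6.56 to 6.59. Of the probe sets, 318760 carried 1 gene symbol in the platform annotation, 6684 several and 931387 none. Old symbols were updated through RefSeq (GRCm38.p6), which matched 18006 of 22296 symbols directly and 4227 by synonym.

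Probe sets with a single symbol and a mean at or above the median (6.56) were kept (245574). Genes with at least 3 were summarised by Tukey's median polish (16871), and Smo shRNA was compared with control shRNA by limma 3.58.1 in R 4.3.3, with a variance trend and Benjamini-Hochberg adjustment over all genes, two-sided, at 0.05. The same fit was run on single probe sets. The procedure was tested on simulated data.

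The members and gene lists were chosen with earlier results of these data known. Named were the 10 members, Smo and, per list, all called genes if 5 or fewer, otherwise the 4 with the largest differences. Up to 2 genes per list that did not pass, those with the highest mean, were added. The 5 protein-coding genes closest in profile to Ppargc1a were named too, with gene-model and clone-like names passed over. Genes named outside this rule are marked as such. Some genes of the lists are not reported here. Alternatives were other filters, summaries and normalizations, no variance trend, a replicate block and leaving out each array.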

Additional observations from a re-analysis of the deposited data

How the results depend on the processing

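The main counts and the Ppargc1a difference were compared with their alternatives 312 times, and 255 of these stayed the same. A count was taken as the same if it stayed within a set ratio of the main count. The Ppargc1a difference was taken as the same if it moved by less than the larger of its SDs within a line. A count could not reverse, and the Ppargc1a difference kept its sign. Ppargc1a stayed between -2.56 and -2.39, and 3 members were called higher in all 14 alternatives. Without 1 array, the genes called higher numbered 6 to 9 for coregulators and partner receptors, 6 to 9 for mitochondrial DNA maintenance, 4 to 8 for the respiratory chain and 1 to 4 for mitochondrial dynamics and antioxidants. Those called lower numbered 1 to 2 for the members, 1 to 2 for upstream signals, 1 to 3 for fatty acid oxidation, 0 to 2 for the citric acid cycle, 0 to 1 for mitochondrial DNA maintenance and 1 to 2 for dynamics and antioxidants. These fits had fewer arrays, and 28.6% to 32.9% of all genes were called in them, against 38.7% with all 6. Over all genes, those called higher numbered 2675 to 2918 in place of 3587. Those called lower numbered 2086 to 2791 in place of 2942.

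With no variance trend, 3 dynamics and antioxidant genes were higher and 1 lower, 2 upstream genes and 2 fatty acid oxidation genes were lower, and 0 citric acid cycle genes were lower. With arrays centred on their median, 2 upstream genes, 2 fatty acid oxidation genes and 1 dynamics gene were lower. With the mean of probe sets 2 upstream genes were lower, and with no filter 0 mitochondrial DNA maintenance genes and 1 dynamics gene were lower. The cause was not tested.

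The replicate numbers were not treated as pairs: deviations of same-numbered arrays correlated at 0.08, 0.10 and 0.39, and replicate 2 correlated more with another number (0.31). With the replicate block 41.1% of genes were called in place of 38.7%, and 1 dynamics and antioxidant gene was lower in place of 2.

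Log2 values near background understate differences, which touches dim probe sets of any member, Ppargc1a in Smo shRNA arrays included, and 3 arrays per line leave a difference of the size of Gabpa at the limit.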

Other observations

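A single dim Nrf1 probe set, below the filter, read 4.85, 4.63 and 4.95 in control arrays and 5.74, 6.02 and 6.26 in Smo shRNA arrays, a difference of 1.20 against 0.21 for the gene. Control replicate 2 was the lowest of the control arrays for 6 of the 10 members and for 54.4% of all genes.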
